A study of Homo sapiens with 8 samples.

Results

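The replicative helicase was followed through the 10 genes that encode its ring, MCM2 to MCM7, and the GINS complex, GINS1 to GINS4. The genes were taken by symbol from the 60230 genes of the count table, and all 10 passed the filter on low counts that left 13400 genes for testing. RNA came from HepG2, a human liver cancer line, made to overexpress the drug-metabolizing cytochrome P450 CYP2C19 and kept under blasticidin, and every group carried this transgene. The 4 groups of 2 libraries were cells given DMSO as the solvent control and cells given compound 4, 5 or 6, labelled metylcresol, tetrabut and cyclohexil, each at its own IC50, concentrations that were similar but not equal. The labels give the 2 libraries of each group as day 1 and day 2. The paper describes 2 replicates per group and a single incubation time, so the day was read here as the replicate number. Whether it marks another time of exposure is not stated in the labels. Nothing in the labels says that the libraries of a group came from separate cultures, so the p-values measure the spread between these libraries. Compounds 4 and 6 are bisphenols joined by a methylene bridge, with tert-butyl groups on the rings of compound 4 and cyclohexyl groups on those of compound 6. Compound 5 has an ethylidene bridge, and a further tert-butyl group on each ring takes the place of the methyl group.

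The MCM proteins form a ring that is loaded onto replication origins in an inactive state before S phase, by the origin recognition complex, CDC6 and CDT1. In S phase the kinase CDC7 and the firing factors attach CDC45 and GINS to the ring, and the joined complex unwinds DNA ahead of the polymerases. Transcription of these genes is known to follow the E2F and RB proteins, so that dividing cells hold much more of their RNA than resting hepatocytes do.

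Letters of an E2F-type site stood near the start site of each of the 7 members searched. The windows hold the 250 bases before to the 50 bases after a start site (RefSeq, GRCh38.p14), and 7 of the 10 members were searched. MCM4 and GINS4 were left out of the search and MCM5 had no window, so whether these genes hold a match is not given here. The shares over other genes were not limited in this way. The letters searched on both strands were TTTCCCGC, TTTCGCGC, TTTGCCGC and TTTGGCGC, and overlapping matches were joined. All 7 genes held at least 1 match, against 3.99% of the 27305 genes with a window, 6.63% of the 10033 tested genes with one, and 13 of the 32 loading, firing, fork and unloading genes described below that had one (40.6%). By window the count was 7 of 9, against 3.31% of 35116 windows, since MCM7 has 3 windows and the match lies in 1 of them. The stretches are shown because each of the 7 genes searched held 1 or more of these 4 letter strings, though not the same one in every gene. Capitals mark the match, each stretch is written 5′ to 3′ on the strand of the gene, and a match is a description of the letters only.
MCM2 (chr3:127598404-127598433, plus strand): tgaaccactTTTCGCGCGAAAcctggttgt
MCM3, first match (chr6:52284888-52284937, minus strand): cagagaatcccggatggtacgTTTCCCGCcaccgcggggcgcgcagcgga
MCM3, second match (chr6:52284728-52284757, minus strand): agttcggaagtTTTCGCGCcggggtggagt
MCM6, first match (chr2:135876565-135876614, minus strand): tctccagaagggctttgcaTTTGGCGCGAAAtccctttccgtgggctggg
MCM6, second match (chr2:135876503-135876552, minus strand): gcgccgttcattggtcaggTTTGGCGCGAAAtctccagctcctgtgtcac
MCM7, first match (chr7:100101556-100101605, minus strand): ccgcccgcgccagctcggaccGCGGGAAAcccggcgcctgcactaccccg
MCM7, second match (chr7:100101388-100101417, minus strand): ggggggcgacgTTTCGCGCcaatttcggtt
GINS1 (chr20:25407667-25407696, plus strand): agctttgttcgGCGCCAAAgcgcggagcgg
GINS2 (chr16:85688957-85689006, minus strand): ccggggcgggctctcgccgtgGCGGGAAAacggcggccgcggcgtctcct
GINS3 (chr16:58392455-58392484, plus strand): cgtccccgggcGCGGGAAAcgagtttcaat

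The match of GINS1 began 6 bases after the start site and that of MCM2 began 3 bases after it. In GINS2 the match began 31 bases before the start site, and in GINS3 it began 5 bases before it. MCM3, MCM6 and MCM7 each held 2 matches, which began 174 and 4, 152 and 90, and 187 and 9 bases before their start sites.

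On GRCh38 (GENCODE 29) the members lay on 8 chromosomes. Of the ring, MCM2 lies at chr3:127598223-127622436, MCM3 at chr6:52264009-52284881, MCM4 at chr8:47960185-47978160, MCM5 at chr22:35400063-35425430, MCM6 at chr2:135839626-135876426 and MCM7 at chr7:100092728-100101940. Of GINS, GINS1 lies at chr20:25407727-25452628, GINS2 at chr16:85676198-85690073, GINS3 at chr16:58295080-58406144 and GINS4 at chr8:41529206-41545046. All are protein-coding genes, and the ring genes have 15 to 17 exons in their principal transcript against 3 to 8 in the GINS genes. The longest overlap of an MCM7 exon with an exon of AP4M1, on the opposite strand, is 224 bases. For MCM2 and TPRA1 it is 45 bases and for GINS2 and GSE1 it is 7 bases. Antisense genes, none of them among the tested genes, overlap exons of MCM2 by up to 774 bases, of GINS3 by up to 394 and of GINS4 by up to 814. The kit marks the strand, but how strand was used in counting is not given in the sources used here, so reads in these overlaps cannot be assigned with certainty.

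The libraries held between 9791659 and 17814595 estimated counts, a ratio of 1.82. The deepest was compound 5 replicate 2, and compound 5 replicate 1 held 12863644. The column names of DMSO replicate 1 and compound 4 replicate 1 mark them as merged, and do not say what was merged. All 9 hepatocyte markers were counted in every library, with a sum of 50664 to 54654 CPM (counts scaled to the library total with TMM factors) in DMSO and of 34999 to 44734 in the treated libraries. CYP2C19 stood at 27.7 and 16.4 CPM in DMSO, 31.4 and 44.3 under compound 4, 52.8 and 37.96 under compound 5, and 23.9 and 21.2 under compound 6. Of 6 fibroblast and stellate markers, 4 or 5 were at 0 in each library, COL1A2, DCN and LUM among them, and their sum ran from 5.11 to 25.4 CPM, nearly all of it from PDGFRB. Of 5 leukocyte and Kupffer markers, PTPRC, CD3E and MARCO were at 0 in every library, and the sum was 20.5 to 40.7 CPM. Endothelial markers summed to 0.740 to 2.08 CPM with KDR at 0 throughout, and cholangiocyte markers to 427 to 503 CPM with no separation between groups.

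In the helicase genes the 2 compound 5 libraries lay apart from each other. Their member medians differed from the DMSO mean by −0.86 in replicate 1 and −0.18 in replicate 2, in log2. With 2 libraries it cannot be told which of them is unusual. Compound 5 replicate 2 held more of all 10 members than compound 5 replicate 1, by 0.43 to 0.76 on the log2 scale with a median of 0.58, where 5% to 95% of all tested genes lay between −0.57 and 0.57. DMSO replicate 2 also exceeded DMSO replicate 1 in all 10 members, by 0.09 to 0.40, and the replicates of compounds 4 and 6 had medians of 0.02 and −0.00. Results for compound 5 are therefore given with and without each of its libraries.

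In DMSO the ring genes were more abundant than the GINS genes, apart from MCM6, which lay at the level of GINS2. Per kilobase of the principal transcript, MCM7 stood highest at 138 ± 11.4 CPM per kilobase (SD, n = 2), followed by MCM3 at 92.3 ± 5.24, MCM2 at 67.3 ± 3.86, MCM5 at 63.4 ± 4.96 and MCM4 at 48.9 ± 8.29. Below them lay GINS2 at 20.01 ± 3.90, MCM6 at 19.6 ± 1.31 and GINS1 at 15.7 ± 1.43. GINS3 and GINS4 were the lowest, at 6.38 ± 0.611 and 6.02 ± 0.281. The libraries of neighbours in this order overlapped for MCM2 and MCM5, for GINS2 and MCM6, and for GINS3 and GINS4, and these pairs cannot be ordered. Since the subunits of the ring are thought to stand in equal number, the RNA levels per length are not a measure of the protein.

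**Figure D1:**
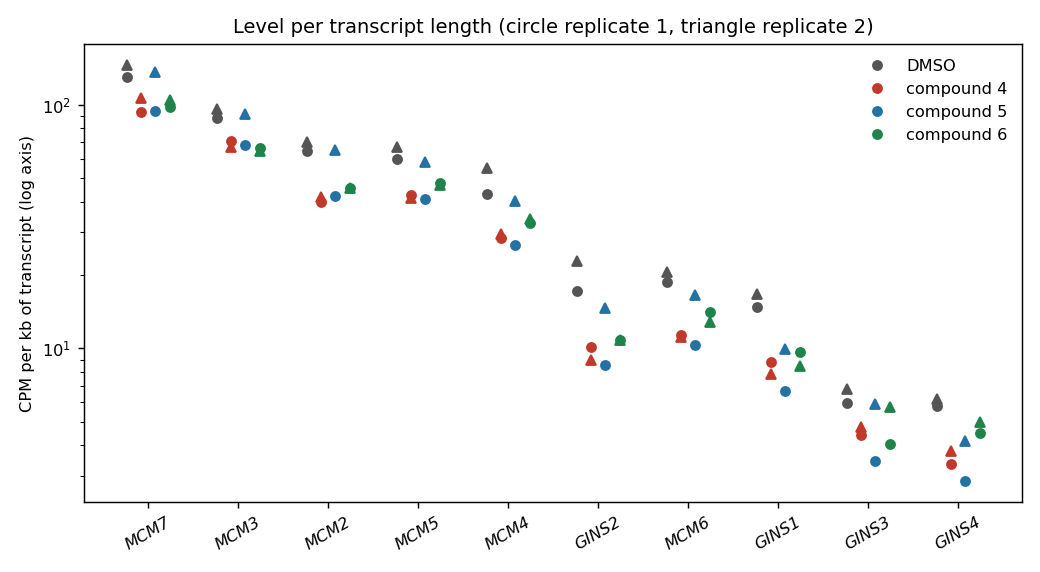
RNA level of each member in CPM per kilobase of principal transcript, on a log axis, with a colour for each of the 4 groups, circles for replicate 1 and triangles for replicate 2, and the genes ordered by their DMSO mean. In DMSO MCM7 lies highest at a mean of 138 and GINS4 lowest at 6.02, and MCM6 is the ring gene that lies among the GINS genes.

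In every comparison with DMSO all 10 members had a lower mean, and the libraries of compounds 4 and 6 lay below both DMSO libraries for each of them. Among the ring genes, MCM2 stood at 234 and 254 CPM in DMSO (replicates 1 and 2), 144 and 152 under compound 4, 153 and 236 under compound 5, and 165 and 165 under compound 6. MCM6 held 69.7 and 76.6 CPM in DMSO, 42.2 and 41.6 under compound 4, 38.7 and 61.9 under compound 5, and 52.7 and 48.1 under compound 6. In both genes the compound 4 and 6 libraries were close to each other and clear of DMSO, while the compound 5 libraries lay apart, and for MCM2 the second of them lay inside the DMSO range. MCM4 held 180 and 229 CPM in DMSO, 118 and 123 under compound 4, 111 and 168 under compound 5, and 136 and 142 under compound 6. MCM7, the most abundant member, held 384 and 431 CPM in DMSO, 276 and 315 under compound 4, 278 and 402 under compound 5, and 290 and 309 under compound 6. MCM7 thus kept the same order of groups as MCM2 but with a smaller gap to DMSO. MCM3 held 284 and 308 CPM in DMSO against 208 to 228 under compounds 4 and 6, and 219 and 294 under compound 5. MCM5 held 212 and 236 CPM in DMSO against 146 to 168 under compounds 4 and 6, and 145 and 207 under compound 5.

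The GINS genes, whose products hold CDC45 and the ring together, were also lower than DMSO under each compound, at lower counts than most of the ring. GINS1 stood at 47.9 and 54.4 CPM in DMSO, 28.6 and 25.5 under compound 4, 21.8 and 32.2 under compound 5, and 31.5 and 27.6 under compound 6. GINS2 held 46.1 and 60.9 CPM in DMSO, 27.0 and 24.0 under compound 4, 22.9 and 39.2 under compound 5, and 28.9 and 28.9 under compound 6. In each of the 4 GINS genes no treated library reached the lower DMSO value, and the same held for MCM4, MCM5 and MCM6. Compound by compound, 28%, 28.5% and 26% of all tested genes were separated from DMSO in this direction (compounds 4, 5 and 6). GINS4 held 22.3 and 23.9 CPM in DMSO, 12.9 and 14.6 under compound 4, 10.9 and 16.0 under compound 5, and 17.3 and 19.2 under compound 6. GINS3, the least abundant in CPM, held 13.5 and 15.5 in DMSO, 10.0 and 10.8 under compound 4, 7.82 and 13.4 under compound 5, and 9.22 and 13.1 under compound 6. Replicate 2 of compounds 5 and 6 lay just below the lower DMSO library for GINS3. In bulk RNA, fewer cells in S phase and less of these transcripts per cell cannot be told apart.

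**Figure D2:**
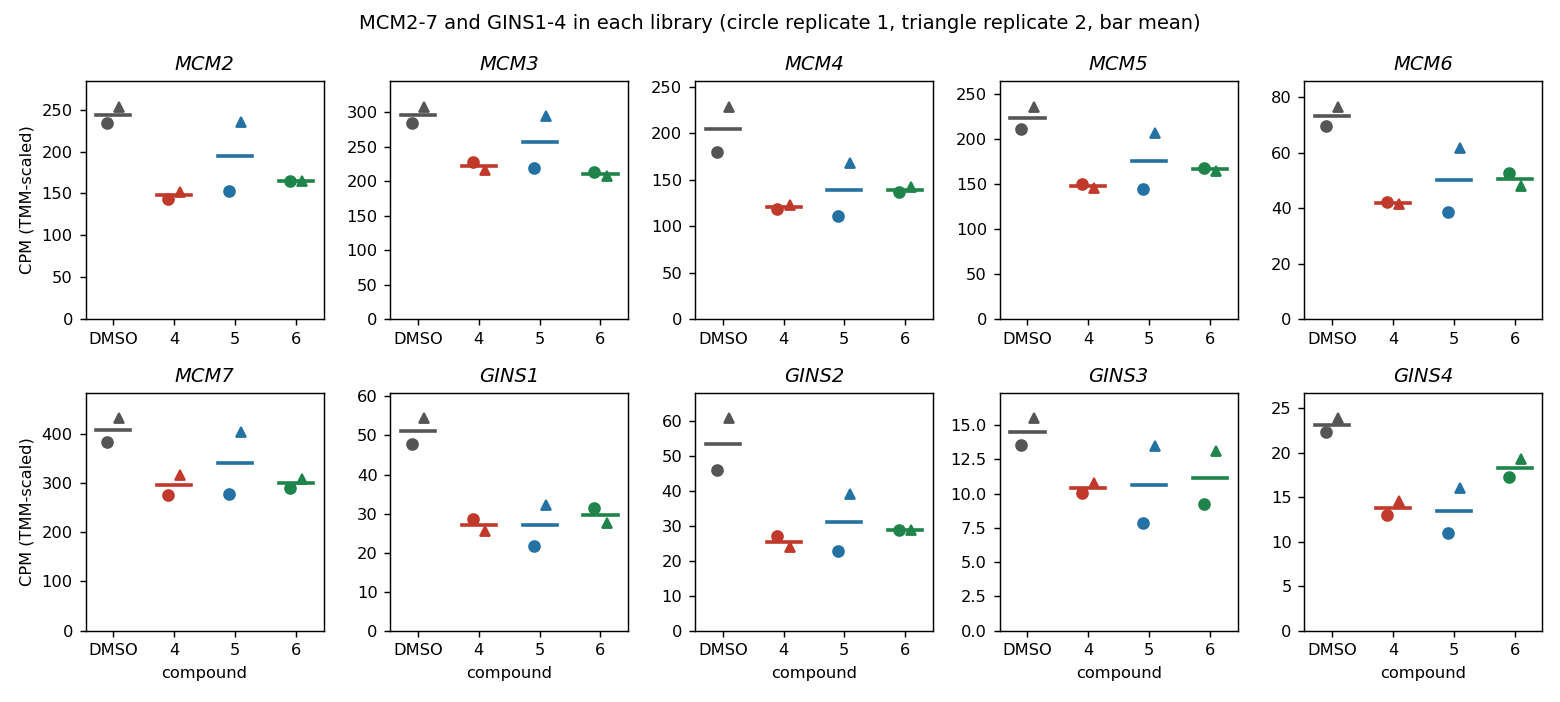
RNA level of each of the 10 members in CPM, 1 panel per gene with an axis from 0, for DMSO and compounds 4, 5 and 6, with replicate 1 as a circle, replicate 2 as a triangle and the group mean as a bar. The compound 4 and 6 libraries lie below both DMSO libraries in every panel, and compound 5 replicate 2 lies above replicate 1 in every panel.

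Under compound 4 most of the helicase genes were lower past the threshold of the test. MCM2, MCM4, MCM5 and MCM6 of the ring and GINS1, GINS2 and GINS4 fell, 7 of the 10 members, where 3.91% of all tested genes were called lower (edgeR's quasi-likelihood test, adjusted p under 0.05). GINS2, the lowest of the set, fell by 52.4%, a log2-fold change of −1.07 ± 0.23 (SE, n = 2 against 2, adjusted p = 0.022, edgeR). GINS1 followed with a log2-fold change of −0.92 ± 0.18 (adjusted p = 0.017), the smallest adjusted p of the set. MCM6 fell by 0.80 on the log2 scale (SE 0.19, adjusted p = 0.030), MCM4 by 0.76 (SE 0.19, adjusted p = 0.033), GINS4 by 0.74 (SE 0.19, adjusted p = 0.036), MCM2 by 0.72 (SE 0.17, adjusted p = 0.031) and MCM5 by 0.59 (SE 0.15, adjusted p = 0.039). The other three, MCM7 (−0.46 ± 0.16, adjusted p = 0.10), MCM3 (−0.42 ± 0.14, adjusted p = 0.084) and GINS3 (−0.48 ± 0.26, adjusted p = 0.27), did not pass. At an unadjusted p of 0.05, 9 members were lower, against 12.4% of tested genes, and both compound 4 libraries lay below both DMSO libraries in all 10 members and in 28% of tested genes. The median log2-fold change was −0.73 over the members, −0.66 over the ring and −0.83 over GINS, against 0.01 over all tested genes. The calls rested on all 4 libraries. The 7 calls became 2 (GINS1 and GINS2) without DMSO replicate 1, 0 without DMSO replicate 2, 1 (GINS1) without compound 4 replicate 1 and 0 without compound 4 replicate 2, where 1.25%, 0.172%, 2.69% and 0.418% of tested genes were called lower. In these fits a lone library was assumed to vary like the others, all 10 members stayed lower, 7 to 9 of them passed an unadjusted p of 0.05, and the median lay between −0.79 and −0.62. Blocking on the replicate number gave 8 calls, MCM7 being the added one, where 5.37% of tested genes were called lower.

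Compound 6 gave changes of the same direction that did not pass the threshold in edgeR. None of the 10 members was called, where 0.0821% of all tested genes were called lower, and 8 were lower at an unadjusted p of 0.05 (7.72% of tested genes). DESeq2 called 5 members, where it called 1.31% of tested genes lower. The log2-fold changes ran from −0.89 ± 0.23 for GINS2 (adjusted p = 0.10) and −0.79 ± 0.18 for GINS1 (adjusted p = 0.077) to −0.38 ± 0.26 for GINS3 and −0.34 ± 0.18 for GINS4 (adjusted p = 0.47 and 0.35, edgeR). The ring genes lay close together, between −0.56 for MCM2 and −0.43 for MCM5, with a median of −0.51. Both compound 6 libraries lay below both DMSO libraries in all 10 members, where 26% of tested genes did so, and the member median was −0.51 against 0.02 over all tested genes. Without any 1 of the 4 libraries edgeR again called 0 members, and 4 to 8 had an unadjusted p under 0.05. When the fit was restricted to the 4 libraries compared, 8 members and 3.12% of tested genes were called lower.

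Under compound 5 GINS1 and GINS4 fell, 2 of the 10 members, where 2.95% of all tested genes were called lower. GINS1 had a log2-fold change of −0.91 ± 0.18 (adjusted p = 0.019, edgeR) and GINS4 of −0.77 ± 0.18 (adjusted p = 0.036). GINS2 stood at −0.78 ± 0.23 (adjusted p = 0.063) and GINS3 at −0.43 ± 0.26 (adjusted p = 0.29). The ring genes ran from −0.55 ± 0.18 for MCM4 (adjusted p = 0.091) to −0.21 ± 0.14 for MCM3 (adjusted p = 0.33), with a median of −0.34 against −0.77 over GINS and 0.00 over all tested genes. The libraries overlapped DMSO for MCM2, MCM3 and MCM7 and did not for the other 7 members, and 28.5% of tested genes lay below DMSO in that way. These counts turned on which compound 5 library was kept. Without compound 5 replicate 2 all 10 members were called, with a median of −0.89, where 5.52% of tested genes were called lower, and without compound 5 replicate 1 edgeR called 0 members and 0.336% of tested genes lower, 3 members had an unadjusted p under 0.05, and the median was −0.19. Without DMSO replicate 1 or replicate 2 edgeR also called 0 members, with 6 and 2 at an unadjusted p under 0.05 and 0.261% and 0.209% of tested genes called lower. The replicate block gave 4 calls, MCM4 and GINS2 being added, where 4.04% of tested genes were called lower.

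**Figure D3:**
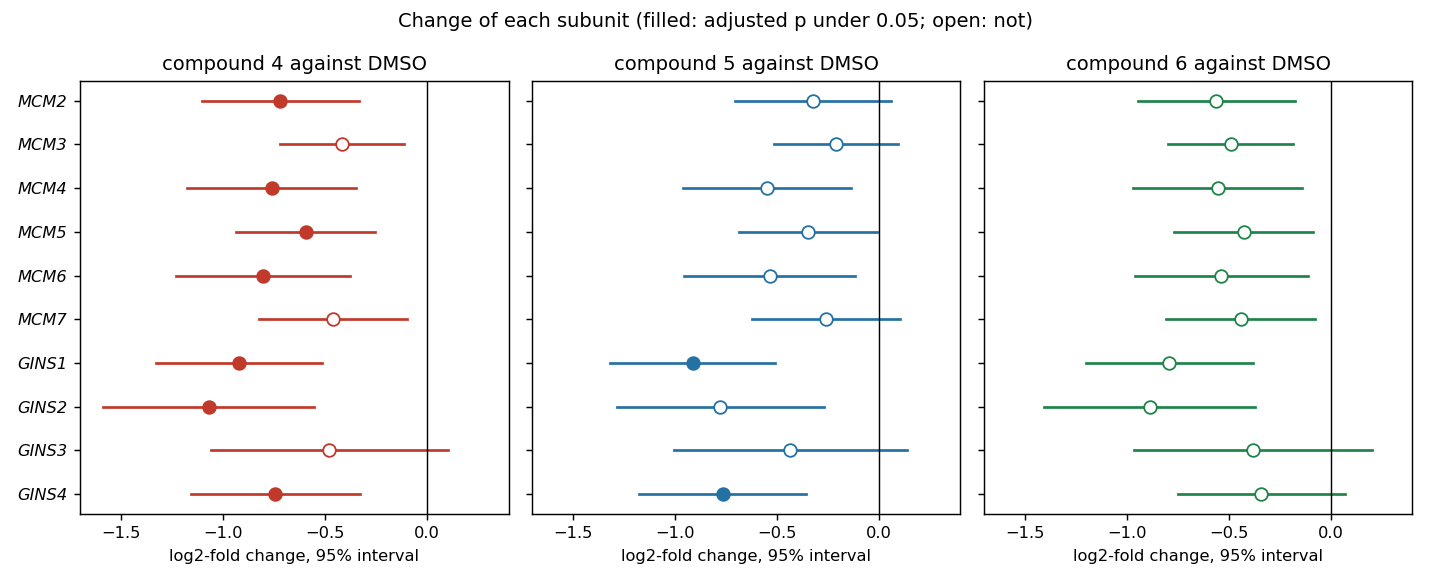
Log2-fold change of each member against DMSO under compounds 4, 5 and 6, as points with 95% confidence intervals from edgeR, with filled points past an adjusted p of 0.05. All 30 points lie below 0, 7 are filled under compound 4, 2 under compound 5 and 0 under compound 6.

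Within each replicate number the direction was the same. On day 1 and on day 2 all 10 members were lower than in the DMSO library of that day under each compound. Under compound 4 the median difference in log2 CPM was −0.65 on day 1 and −0.71 on day 2, and under compound 6 it was −0.41 and −0.59. Under compound 5 it was −0.73 on day 1 and −0.25 on day 2, where MCM3 differed from DMSO by −0.07, MCM7 by −0.10 and MCM2 by −0.11, while GINS1 still differed by −0.75. The 3 comparisons share their DMSO libraries, so their directions are not independent of each other.

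**Figure D4:**
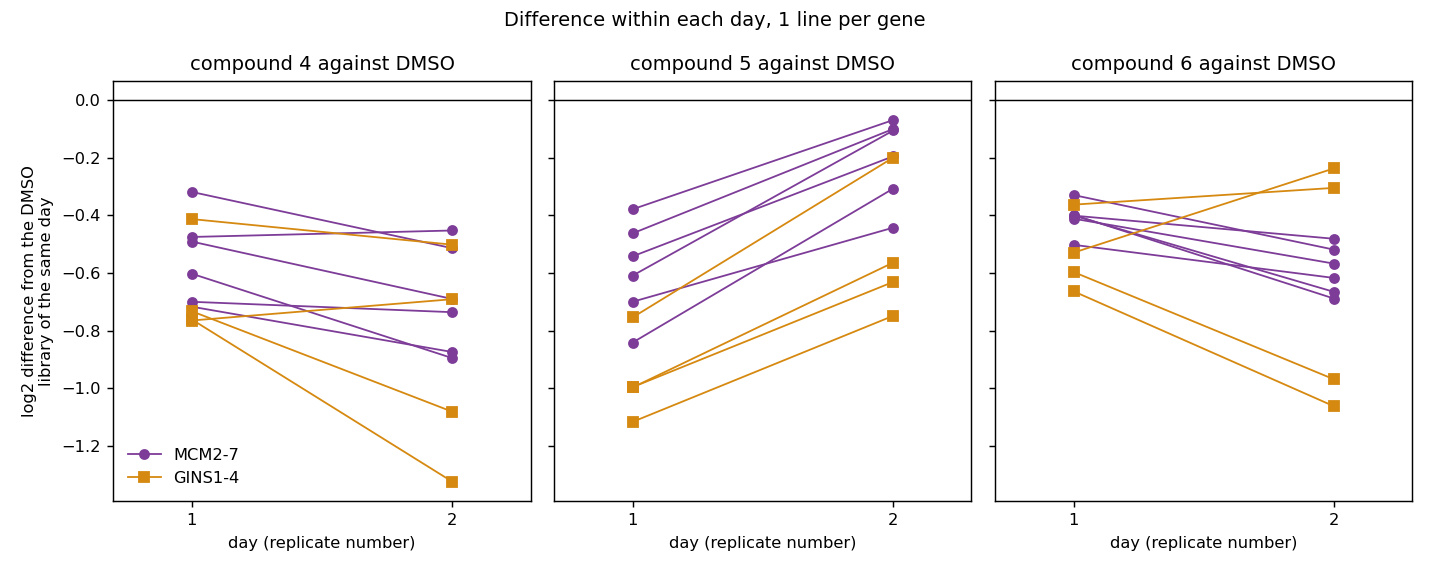
Difference in log2 CPM between each compound's library and the DMSO library with the same replicate number, for each member on day 1 and on day 2, with purple circles for the ring genes, orange squares for GINS, and a line joining the values of a gene. All points lie below 0, and the day 2 points of compound 5 lie nearest to it, with a median of −0.25.

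Set against each other, the compounds did not differ in any member past the threshold, over 3 pairs of compounds with p-values adjusted over all tested genes. Each compound was given at its own IC50, so the doses were close to each other without being matched. Between compounds 4 and 5, which differ in the bridge and in the methyl or tert-butyl group, MCM2 differed most, by −0.40 in log2 (95% interval −0.78 to −0.01, adjusted p = 0.30, edgeR), and it was the only member with an unadjusted p under 0.05. For compounds 6 and 5 the largest difference was in GINS4, 0.43 higher under compound 6 (0.01 to 0.84, adjusted p = 0.26), again the only member with an unadjusted p under 0.05. Compounds 4 and 6, which differ in tert-butyl against cyclohexyl groups, had their largest difference in GINS4 too, −0.40 (−0.82 to 0.02, adjusted p = 0.72), and no member had an unadjusted p under 0.05. At an unadjusted p under 0.05 (edgeR), 1022 of the 13400 tested genes were lower and 1155 higher between compounds 4 and 5. Between 6 and 5 these counts were 1094 and 1389, and between 4 and 6 they were 459 and 486. In no pair was the share of members at that p larger than the share over all tested genes. Of all tested genes, 0.313% were called between compounds 4 and 5, 1.03% between 6 and 5, and 0% between 4 and 6, and DESeq2 called 0 members in each pair. Over the 10 members the 95% intervals reached from −0.81 to 0.54 for compounds 4 and 5, from −0.63 to 0.84 for 6 and 5, and from −0.82 to 0.50 for 4 and 6, so differences within these limits are not excluded. The comparison of compounds 4 and 5 turned with the day: 2 of 10 members were lower under compound 4 on day 1 and 10 on day 2, with medians of 0.11 and −0.45. For compounds 6 and 5 these counts were 1 and 9, with medians of 0.26 and −0.34, and for compounds 4 and 6 they were 8 and 8, with medians of −0.15 and −0.19.

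The members varied together across the 8 libraries. Their pairwise correlations in log2 CPM ran from 0.57 to 0.99 with a median of 0.90. This is a description over libraries that share treatments and that include the gap between the compound 5 libraries. MCM4 followed the mean profile of the set most closely (r = 0.99) and GINS4 least (r = 0.88). Outside the set the 5 tested genes with the most similar profile over the 8 libraries were C1orf112 and LIG1 (r = 0.99 for both), RFWD3, UHRF1 and XRCC3 (r = 0.99 for each). LIG1, the ligase that joins Okazaki fragments, held 60.6 and 71.4 CPM in DMSO, 38.7 and 34.1 under compound 4, 31.4 and 53.8 under compound 5, and 41.4 and 43.4 under compound 6. UHRF1, which maintains DNA methylation behind the fork, held 187 and 228 CPM in DMSO, 108 and 106 under compound 4, 91.2 and 166 under compound 5, and 133 and 140 under compound 6. Both had their compound 5 replicate 2 well above replicate 1, a gap that is part of the profile by which they were picked.

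CDC45, the remaining subunit of the active helicase, had the direction of the members without passing the threshold. It stood at 26.7 and 35.4 CPM in DMSO, 20.4 and 21.5 under compound 4, 19.3 and 33.9 under compound 5, and 24.7 and 25.7 under compound 6. The log2-fold changes were −0.57 ± 0.24, −0.22 ± 0.23 and −0.31 ± 0.24 under compounds 4, 5 and 6 (adjusted p = 0.16, 0.57 and 0.52, edgeR).

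The genes that load, fire, accompany and unload the helicase mostly had the direction of the members. Of 36 such genes, CDC45 included, 33 had a negative log2-fold change with compound 4 (48.6% of all tested genes), 27 with compound 5 (49.6%) and 33 with compound 6 (47.3%). Under compound 4, 5 of the 36 fell and 0 rose, where 3.91% of all tested genes were called lower. They were TICRR, needed for CDC45 to join the ring (−1.18 ± 0.24, adjusted p = 0.019), MCM10, which activates the loaded helicase (−0.84 ± 0.20, adjusted p = 0.029), WDHD1, which ties the helicase to polymerase alpha (−0.81 ± 0.16, adjusted p = 0.017), CLSPN, the checkpoint mediator of the fork (−0.69 ± 0.18, adjusted p = 0.043), and the loader CDC6 (−0.67 ± 0.18, adjusted p = 0.0496, edgeR). Under compound 5, 2 of the 36 fell and 0 rose, a share near the 2.95% of all tested genes called lower. These were the kinase gene CDC7 (−0.89 ± 0.24, adjusted p = 0.049) and CLSPN (−0.78 ± 0.18, adjusted p = 0.032). Under compound 6 edgeR called 0 and DESeq2 1, where they called 0.575% and 4.01% of all tested genes in either direction. At an unadjusted p of 0.05 in edgeR, 10 were lower, as were 7.72% of all tested genes. The median over the 36 genes was −0.52, −0.23 and −0.27 under compounds 4, 5 and 6, against −0.73, −0.49 and −0.51 over the members.

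By role, the fork companions and firing factors had the lowest medians and the unloading genes the highest. All 9 firing factors were lower in each comparison, with medians of −0.55, −0.26 and −0.28, and their ends were TICRR and TOPBP1 (−0.30) under compound 4, CDC7 and TOPBP1 (−0.12) under compound 5, and MCM10 (−0.76) and MTBP (−0.08) under compound 6. Of the 9 loading genes 8, 7 and 8 were lower, with medians of −0.47, −0.22 and −0.21. ORC2, a subunit of the origin recognition complex, was at the upper end under each compound (0.26, 0.23 and 0.23), and the lower end was CDC6 under compound 4 and GMNN, the inhibitor of CDT1, under compounds 5 and 6 (−0.59 and −0.58). The 8 fork companions had medians of −0.57, −0.32 and −0.29. Among them POLE4 had the highest value under compounds 4 and 5 (0.14 and 0.06) and POLE2 under compound 6 (−0.09), and the lowest were WDHD1, CLSPN and POLE3 (−0.57 under compound 6). The 9 chaperone and unloading genes, which take the ring off chromatin after replication, had medians of −0.12, 0.02 and −0.13, between LRR1 (−0.58, −0.40 and −0.66) and NPLOC4 (0.33, 0.36 and 0.21), and none passed the threshold.

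The E2F and RB genes were split in direction. Of 13, 8 were lower with compound 4, 8 with compound 5 and 10 with compound 6, with medians of −0.21, −0.13 and −0.33. Among all tested genes 48.6%, 49.6% and 47.3% had a negative log2-fold change. Under compound 4, 5 of the 13 fell and 0 rose (3.91% of all tested genes were called lower): the repressors E2F7 (−1.746 ± 0.24, adjusted p = 0.005) and E2F8 (−1.746 ± 0.37, adjusted p = 0.020), E2F2 (−0.80 ± 0.20, adjusted p = 0.037), the E2F partner TFDP2 (−0.56 ± 0.11, adjusted p = 0.016) and the RB relative RBL1 (−0.59 ± 0.16, adjusted p = 0.045, edgeR). E2F7 stood at 15.5 and 13.7 CPM in DMSO and at 4.597 and 4.11 under compound 4, 4.61 and 7.57 under compound 5, and 7.75 and 7.48 under compound 6. Under compound 5, E2F7 (−1.24 ± 0.23, adjusted p = 0.015) and E2F2 (−1.01 ± 0.20, adjusted p = 0.019) fell, where 2.95% of all tested genes were called lower, and under compound 6 none was called, with E2F8 lowest at −1.02 ± 0.35. At the other end stood RBL2 under compounds 4 and 6 (0.29 and 0.16) and E2F4 under compound 5 (0.30).

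Markers of proliferating cells were lower beside the helicase genes, and their part in the result was not tested. All 10 were lower in each comparison, 8 fell past the threshold under compound 4, where 3.91% of all tested genes were called lower. Under compounds 5 and 6 edgeR called 0, and 6 and 10 were lower at an unadjusted p of 0.05, as were 12.8% and 7.72% of all tested genes. Their summed level was 1830 and 2245 CPM in DMSO, 1064 and 1065 under compound 4, 1123 and 1733 under compound 5, and 1245 and 1281 under compound 6, with compound 5 replicate 2 again nearest to DMSO. MKI67, the antigen of cycling cells, was lowest under compound 4 (−1.26 ± 0.20, adjusted p = 0.008), PCNA, the polymerase clamp, under compound 5 (−0.71 ± 0.22, adjusted p = 0.072), and the mitotic gene BIRC5 under compound 6 (−0.81 ± 0.18, adjusted p = 0.071, edgeR). The highest values were those of AURKA under compound 4 (−0.64) and of RRM2 under compounds 5 and 6 (−0.31 and −0.53). The medians of the 10 markers were −0.91, −0.50 and −0.71.

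Other markers differed as well, with most of the calls under compound 4, and their part was not tested. Under compound 4 PDGFRB rose by 1.79 ± 0.27 on the log2 scale (adjusted p = 0.006, edgeR), from 9.12 and 5.02 CPM to 23.2 and 25.3, while COL1A2, DCN and LUM stayed at 0. CD68 rose by 0.80 ± 0.16 (adjusted p = 0.016, edgeR), while PTPRC stayed at 0, and CD14 stood at 1.42 without passing. Among all tested genes 5.6% were called higher under compound 4. Under compound 6 PDGFRB, CD14 and CD68 stood at 1.05, 1.15 and 0.43, none past the threshold. Each was higher at an unadjusted p under 0.05 (edgeR), as were 1455 of the 13400 tested genes. Under compound 5 they stood at 0.43, 0.41 and 0.03. Of the 9 hepatocyte markers APOA1, AFP, APOB and TF fell under compound 4 and none rose, with TTR highest at 0.25. Among all tested genes 3.91% were called lower under compound 4. Under compound 5 none fell and FGB, a fibrinogen chain, rose by 0.53 ± 0.12 (adjusted p = 0.030, edgeR), where 5.35% of all tested genes were called higher. Under compound 6 none was called, with HNF4A highest at 0.07. APOA1 was the lowest under each compound (−0.90, −0.52 and −0.91). CYP2C19, the overexpressed enzyme, differed from DMSO by 0.79 ± 0.26 under compound 4 (adjusted p = 0.086), rose by 1.05 ± 0.26 under compound 5 (adjusted p = 0.040) and differed by 0.04 ± 0.27 under compound 6.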

How the data were processed

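Paired-end directional libraries were quantified by the authors with Salmon 1.5.0 on a GENCODE 38 transcriptome (GRCh38), after FastQC 0.12.0, and summarized to genes with tximeta. The deposited values are estimated counts, given as whole numbers per gene and sample without normalization, and 23080 genes had at least 1 count. The submitters' processing notes also name DESeq2 1.38.3 for the testing. Depth per library was 9791659 to 17814595 counts.

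Counts were normalized here by TMM and tested with the quasi-likelihood test of edgeR 4.0.16 in R 4.3.3, in 1 fit of all 8 libraries. The filterByExpr minimum count was 10, and the Benjamini-Hochberg adjustment ran over 13400 genes with a threshold of 0.05. Standard errors were derived from the F statistic. With 2 against 2 libraries an exact permutation test cannot give a two-sided p below 0.33, so none was run. DESeq2 1.42.0 was an alternative. The code was tested on simulated data. Single-library comparisons used log2 CPM with 0.5 CPM added.

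Positions and lengths came from GENCODE 29. The members and gene lists were chosen with earlier results of these data known. Named were the members, CDC45, the largest difference between compounds, the highest and lowest gene of each list with those called, and the 5 genes most correlated with the members. The other genes called and the marker genes named with them were added after their values were seen. Same-numbered libraries share the day in the labels, which gives the pairing. The correlation of their deviations over the 6 pairs of groups ran from −0.16 to 0.30.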

Additional observations from a re-analysis of the deposited data

How the results depend on the processing

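All 10 members had a lower mean than DMSO under every compound in each of the 10 alternatives to each comparison, and no difference of MCM2 or GINS4 named between compounds changed sign. The other named genes were not recomputed under the alternatives. How many passed the threshold did depend on the processing. Under compound 4 (7 members and 5 partner genes called) the number of members was 7 to 9 without leaving out a library and the number of partners was 11 with DESeq2, 13 with the replicate block, 15 with no filter on low counts, 9 with at least 10 counts in every sample and 11 in a fit of the 4 samples alone. In these settings 10.7%, 12.7%, 10.3%, 11.6% and 11.3% of all tested genes were called in either direction, against 9.51% in the main fit. Under compound 5 (2 and 2 called) the members and the partners were 4 and 4 with DESeq2, 4 and 4 with the replicate block, 5 and 6 with no filter, and 1 and 0 in the 4 samples alone. Here 9.61%, 10.7%, 10.5% and 6.01% of all tested genes were called in either direction, against 8.3% in the main fit. Under compound 6 (0 and 0 called) the members and the partners were 5 and 1 with DESeq2, 8 and 7 with no filter, and 8 and 4 in the 4 samples alone, and the replicate block called 0 members. The matching shares of all tested genes, in either direction, were 4.01%, 5.87%, 7.13% and 0.507%, against 0.575% in the main fit. Between compounds 4 and 5, 1 member (MCM2) was called with no filter, where 3.25% of all tested genes were called in either direction. The replicate block changed no other count by more than 1.5 times. Leaving out 1 library at a time gave 0 to 2 members and 0 to 3 partners under compound 4, with a member median of −0.79 to −0.62, and 0 to 10 members and 0 to 8 partners under compound 5, with a median of −0.89 to −0.19. Under compound 6 the member median in such fits was −0.59 to −0.40. The median difference ran from −0.45 to 0.12 between compounds 4 and 5, and from −0.30 to 0.33 between 6 and 5, so its sign rested on which compound 5 library was kept. The cause was not tested, beyond the fewer libraries in each such fit. GINS3, the member with the fewest CPM, had the widest standard error against DMSO (0.26 under each compound).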

Other observations

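MCM8 and MCM9, relatives of the ring genes that work in recombination, and HROB, which recruits them, were measured beside the members, and MCMDC2 did not pass the filter on low counts. Under compound 4 their log2-fold changes were −0.54 ± 0.19, −0.19 ± 0.20 and −0.53 ± 0.26, under compound 5 −0.16 ± 0.19, −0.35 ± 0.19 and 0.05 ± 0.25, and under compound 6 −0.22 ± 0.19, −0.03 ± 0.20 and −0.21 ± 0.25. None passed the threshold in edgeR, and 1, 0 and 0 were lower at an unadjusted p of 0.05.

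Of the members, 3 share a start region with a tested protein-coding gene on the opposite strand. The start of TPRA1 lies 19 bp from that of MCM2 and the start of PRKDC 753 bp from that of MCM4, while the first exons of AP4M1 and MCM7 overlap. TPRA1, at 19.5 and 22.9 CPM in DMSO, differed from DMSO by 0.14 ± 0.13, 0.33 ± 0.13 and 0.28 ± 0.14 in log2 (compounds 4, 5 and 6), opposite in sign to those of MCM2. PRKDC had −0.36 ± 0.14, −0.10 ± 0.14 and −0.07 ± 0.14, and AP4M1 −0.18 ± 0.16, −0.22 ± 0.16 and 0.04 ± 0.16. None of the 3 genes was past the threshold in any comparison with DMSO.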
